A study of Argopecten irradians irradians x Argopecten purpuratus with 6 samples.

Results

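The genes described here were close to silent in 1 library and clearly expressed in another library of the same muscle colour. A gene was called off in a library where its value was under 0.1 FPKM (read fragments scaled to gene length and library size) and on where it was at least 2 FPKM. Of the 29249 genes in the files, 356 were both on and off within at least 1 colour, and the 300 with the highest single value were kept as members. Among these members, 118 met the rule in orange only, 170 in white only and 12 in both colours. The FPKM values themselves chose the members, so their on and off states are given as a description, with no test. The last member kept, evm.TU.Contig271.47, reached 2.28 FPKM, and the first gene left out, evm.TU.Contig363.4, reached 2.27 FPKM. At the limits of the rule, the lowest maximum over the 6 libraries among the 356 genes was 2.004 FPKM. The nearest gene outside reached 1.996 FPKM within a colour in which it was also off in a library. Among the values by which members met the rule, the highest off value that was the lowest of its colour was 0.0995 FPKM, and the nearest gene outside had 0.101 FPKM in its lowest library.

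Adductor muscle RNA came from a strain with orange muscle, QN Orange, and a strain with white muscle, Bohai Red, each with 3 libraries. Each library was a pool of 3 muscles, so a gene that is on in a pool may have been expressed in 1 of its animals or in all of them, which cannot be told apart. Both strains were selected from hybrids of Argopecten irradians irradians and Argopecten purpuratus and all samples were 1 year old, whereas the sample labels give the name Bohai Red to all 6. Nothing states that a replicate number links an orange pool to a white pool. The adductor closes the shell, and in scallops it joins a large striated part for fast contraction to a smaller smooth part that holds tension. The authors state that carotenoids, pigments that most animals obtain from food, may contribute to orange colour in scallops. They propose that melanin may also contribute. In bulk tissue, fewer cells of a type and less RNA per cell cannot be told apart. Genes have identifiers but no names in the files, so no role can be given to any member, and the tissue label was not checked against marker genes.

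Reads on genes could be worked out from the spacing of the FPKM values, with library totals between 27778084 and 36093567 for orange and between 27564653 and 29303613 for white muscle. The highest library of a member held from 11 to 11616 reads, with a median of 158. Over the colours in which members met the rule there were 413 off values, of which 226 (54.7%) rested on 0 reads, and the highest rested on 15 reads. At the level of the highest library of the same colour, these off libraries would have held at least 12.2 reads each and a median of 134 reads. These totals exceed the number of read pairs sequenced, so some pairs were counted more than once. Both mates of a pair were taken as counted apart, which was not tested. On that reading, a count of 0 allows up to 6 reads. Intervals and floors given here cover counting error only, and the intervals on ratios of reads treat mates as independent, which makes them too narrow. A library with 0 reads of a member therefore does not show that the gene was silent in it.

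The libraries differed in how many members they expressed. Orange replicates 1, 2 and 3 had 74, 30 and 98 members on, with 117, 205 and 114 off. White replicates 1, 2 and 3 had 113, 68 and 85 members on, with 94, 133 and 130 off. Orange replicate 2 thus had the fewest members on and the most off, with a median of 0.0299 FPKM over the members, against medians of 0.177 to 0.746 FPKM in the other 5 libraries. Its depth, 31246198 reads, was the second highest of the 6. Over all genes of the files, 10329 were on in orange replicate 2, within the range of 9617 to 11059 over the other libraries, and 12021 were off, against 10844 to 11535. The plot of states per library shows these counts.

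**Figure D1:**
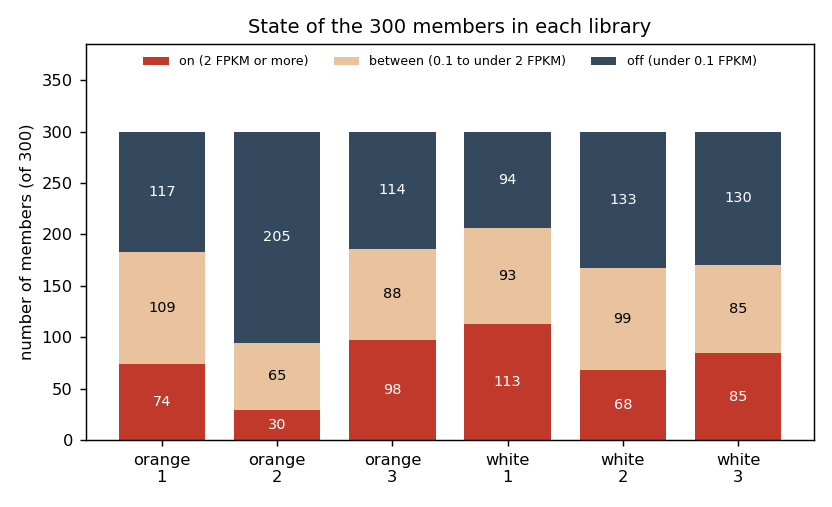
Number of members that were on (2 FPKM or more), between and off (under 0.1 FPKM) in each library, with the orange libraries on the left and the white libraries on the right. Orange replicate 2 has 205 of the 300 members off, and white replicate 1 has the most on, 113.

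Most members were on in a single library. Of the 300, 203 were on in exactly 1 of the 6 libraries, 46 in 2, 36 in 3, 10 in 4 and 5 in 5. Those on in 1 library alone were divided unevenly, orange replicates 1, 2 and 3 having 23, 3 and 58 of them and white replicates 1, 2 and 3 having 47, 34 and 38. In 45 members the other 5 libraries were all off. Maximum values were mostly low, with a median of 3.99 FPKM, and 37 members reached 10 FPKM or more. The heatmap shows the members as blocks, 1 for each library.

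**Figure D2:**
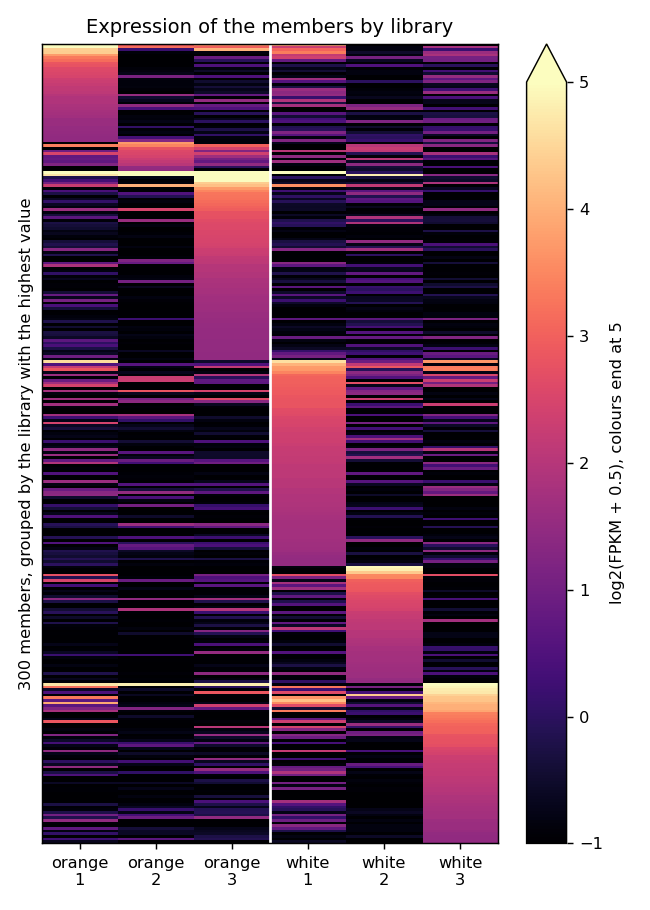
Values of the 300 members as log2(FPKM + 0.5), 1 row per member and 1 column per library, grouped by the library with the highest value and ordered by that value. Orange replicates 1, 2 and 3 held the highest value of 37, 11 and 71 members, and white replicates 1, 2 and 3 that of 77, 44 and 60.

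The most abundant members that met the rule in white only were expressed in all 3 orange libraries. evm.TU.Contig624.9 had 654, 624 and 728 FPKM in orange replicates 1, 2 and 3, against 289, 0.474 and 0 FPKM in white replicates 1, 2 and 3. This short gene model of 306 bases held 5555, 5962 and 8040 reads in the orange libraries, against 2578, 4 and 0 reads in the white libraries. It was thus high in every orange pool and in 1 white pool, and its level in white replicate 1 was at least 432-fold that in white replicate 3, with 0 reads set at a floor of 6. evm.TU.Contig82568.1 had 25.1, 46.5 and 58.5 FPKM in the orange libraries, against 0, 26.8 and 2.01 FPKM in the white libraries. White replicate 1, the white library in which evm.TU.Contig624.9 was high, had no read of it. evm.TU.Contig80.203 had 44.7, 6.85 and 11.5 FPKM in the orange libraries, against 14.3, 0 and 0 FPKM in the white libraries. For evm.TU.Contig81.69 the values were 38.9, 8.48 and 7.39 FPKM in orange, against 4.37, 0.0606 and 2.99 FPKM in white muscle. Its 3 orange values lay above its 3 white values, and white replicate 2 alone was off, with 4 reads.

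Among members that met the rule in orange only, 2 of the 4 highest were nearly confined to orange replicate 3. evm.TU.Contig1331.5 had 0.392, 0.0951 and 37.0 FPKM in orange replicates 1, 2 and 3, against 0.493, 0.287 and 0.237 FPKM in the white libraries. evm.TU.Contig125.104, with a recovered length of 9094 bases, had 0.748, 0.0246 and 35.4 FPKM in orange, against 0.106, 0.0718 and 0.184 FPKM in white muscle. Its 11616 reads in orange replicate 3 were the most of any member in a library, and the ratio to orange replicate 2, with 7 reads, was 1437 (95% exact interval 697 to 3574). The other 2 were highest in white replicate 3. evm.TU.Contig216.41 had 8.67, 0 and 0.477 FPKM in orange, against 9.08, 1.72 and 29.3 FPKM in white muscle. evm.TU.Contig0.231 had 0.848, 0 and 6.71 FPKM in orange, against 5.60, 0.778 and 26.1 FPKM in white muscle. Both had 0 reads in orange replicate 2 and were lower in white replicate 2 than in the other white libraries.

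The 12 members that met the rule in both colours did so in different combinations of libraries. evm.TU.Contig583.29 had 12.8, 0 and 0 FPKM in orange replicates 1, 2 and 3, against 4.12, 0.0652 and 3.03 FPKM in white replicates 1, 2 and 3. Novel02469 was its opposite, with 0, 6.30 and 4.92 FPKM in orange, against 0, 4.21 and 0 FPKM in white muscle, from 61, 55 and 36 reads in the libraries above 0. Every library in which evm.TU.Contig583.29 was on had no read of Novel02469. Novel01656 had 0, 2.15 and 2.04 FPKM in orange, against 6.52, 0 and 0 FPKM in white muscle. evm.TU.Contig407.35 had 1.11, 0 and 6.12 FPKM in orange, against 0.0459, 3.25 and 0.274 FPKM in white muscle.

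A stricter pattern within a colour, 1 library on and both others off, was met by 22, 2 and 23 members for orange replicates 1, 2 and 3 and by 21, 15 and 18 members for white replicates 1, 2 and 3. The reverse, 1 library off and both others on, was met by 3, 4 and 1 members for the orange and 5, 12 and 12 members for the white replicates. Orange replicate 2 was also the library most often off where another orange library was on. Of the 130 members that met the rule in orange, 111 were off in it, against 36 and 30 in orange replicates 1 and 3. In the 182 members that met the rule in white, 56, 94 and 86 were off in white replicates 1, 2 and 3.

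Single members show how far these patterns went. The highest member on in orange replicate 1 with both other orange libraries off, evm.TU.Contig763.11, had 20.1, 0.0343 and 0.0594 FPKM in orange, against 9.86, 0.194 and 2.56 FPKM in white muscle. evm.TU.Contig57.127 had 0, 12.7 and 0.0503 FPKM in orange, from 0, 219 and 1 reads, against 0.125, 0 and 0.310 FPKM in white muscle. It was the highest of the few members on in orange replicate 2 alone. evm.TU.Contig178.71 had 0.0394, 0.0210 and 12.8 FPKM in orange, against 0.0376, 0.111 and 0.149 FPKM in white muscle. evm.TU.Contig141.60 had 0.0599, 0 and 0 FPKM in orange, against 0.0571, 29.9 and 0.0568 FPKM in white muscle, with 496 reads in white replicate 2 and 1 read in each white library beside it. evm.TU.Contig121.77 had 25.3, 27.98 and 27.5 FPKM in orange, against 0.0480, 0.0203 and 34.9 FPKM in white muscle. White replicate 3 was therefore close to the even level of the orange libraries, and the other white libraries held 5 and 2 reads.

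Members off in 1 library alone of their colour had similar contrasts. Novel00072 had 4.16, 0.0860 and 4.02 FPKM in orange, against 13.0, 6.73 and 9.72 FPKM in white muscle, so orange replicate 2 stood apart from 5 libraries. evm.TU.Contig1529.3 had 2.77, 2.95 and 0 FPKM in orange, against 5.67, 0.866 and 1.91 FPKM in white muscle, and was the only member off in orange replicate 3 with both other orange libraries on. Novel00449 had 0.0145, 0.142 and 0.0336 FPKM in orange, against 0.0139, 19.6 and 21.5 FPKM in white muscle. White replicates 2 and 3 held 1339 and 1560 reads of it, and white replicate 1 held 1 read. Novel00961 had 1.12, 0 and 0 FPKM in orange, against 18.1, 0.0491 and 18.6 FPKM in white muscle. Novel00569 had 0.920, 1.02 and 0.924 FPKM in orange, against 16.2, 3.99 and 0.0484 FPKM in white muscle. The orange level of Novel00569 was even over its 3 libraries, while the white libraries ran from 665 reads to 2.

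The rule looked at 1 colour at a time, so the values in the other colour of the members that met it in 1 colour only were not used, except that they did not meet it there too and that the highest value ranked the genes. Of the 118 orange-only members, 22 (18.6%) were off in all 3 white libraries and 2 (1.69%) were on in all 3. Over all 24393 genes above 0 in a library, 17.7% were off and 37.4% on in all 3 white libraries. Of the 170 white-only members, 56 (32.9%) were off in all 3 orange libraries and 11 (6.47%) were on in all 3, against 18.6% and 36.0% of all genes. The genes at large include many abundant ones, these shares were not matched for level, and the difference was not tested. These counts changed when a library was left out and the members were chosen anew. Leaving out a library of the colour looked at also weakens the condition of every library. Members that met the rule in both colours can then count for the other colour only. Both contribute to rises in these counts. The 22 orange-only members off in every white library became 5 without orange replicate 3, 34 without white replicate 1, 43 without white replicate 2 and 36 without white replicate 3. The 2 that were on there became 1 and 0 without orange replicates 1 and 2 and 21 and 4 without white replicates 2 and 3. The 56 white-only members off in every orange library became 87 without orange replicate 1, 34 without white replicate 1 and 33 without white replicate 2. The 11 that were on there became 17 without orange replicate 1, 4 without white replicate 1 and 5 without white replicate 3.

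Which white libraries expressed an orange-only member differed with the orange library that expressed it. There were 19 such members on in orange replicate 1 with both other orange libraries off, and their medians were 3.30, 0.190 and 2.55 FPKM in white replicates 1, 2 and 3. White replicates 1 and 3 were on for 10 each, and white replicate 2 was on for 0 of the 19, with values up to 1.74 FPKM. For the 21 members on in orange replicate 3 with both other orange libraries off, the medians were 0.0376, 0.0443 and 0.0317 FPKM in white replicates 1, 2 and 3. They were on in 1, 0 and 1 of these white libraries and off for 17, 12 and 16 of the members. With no condition on the other orange libraries, 48 orange-only members were on in orange replicate 1, of which 22, 4 and 17 were on and 7, 12 and 6 off in white replicates 1, 2 and 3. Of the 70 that were on in orange replicate 3, 6, 4 and 7 were on and 29, 26 and 38 off in white replicates 1, 2 and 3. In both selections the share on in white replicates 1 and 3 was higher for members on in orange replicate 1 than for those on in orange replicate 3. The wider selection holds all members of the stricter selection, so it is no separate observation. Members on in both orange replicates 1 and 3 count on both sides of the wider selection. Whether the 2 sets differ was not tested, since members share their libraries and are not replicates.

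**Figure D3:**
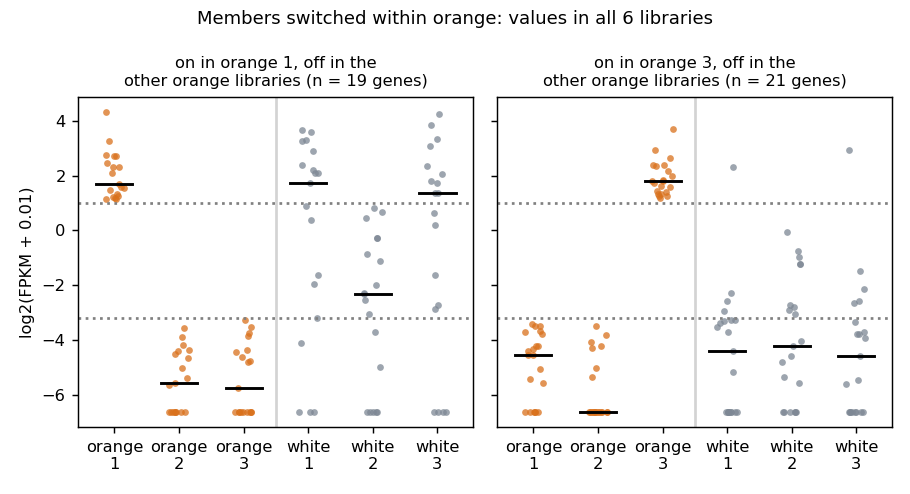
Values of orange-only members, as log2(FPKM + 0.01), in all 6 libraries for the 19 members on in orange replicate 1 alone of its colour (left) and the 21 on in orange replicate 3 alone (right). Points are genes, black bars are medians, and dotted lines mark 2 and 0.1 FPKM, so in the left panel 10 of 19 points lie above the upper line in white replicates 1 and 3 and 0 in white replicate 2, and nearly all white points of the right panel lie under 2 FPKM.

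Seen over all 300 members, 26 had orange replicate 1 and white replicates 1 and 3 each more than 4 times above every other library. The factor of 4 and this set were chosen after the values were seen. It holds 14 orange-only members, 7 white-only members and 5 that met the rule in both colours, among them evm.TU.Contig216.41, evm.TU.Contig763.11, evm.TU.Contig583.29 and Novel00961. Their medians were 3.11, 0.0105 and 0.0304 FPKM in orange replicates 1, 2 and 3, against 3.57, 0.0717 and 2.59 FPKM in white replicates 1, 2 and 3. Orange replicate 1 and white replicates 1 and 3 were on for 19, 18 and 19 of the 26, and off for 2, 1 and 0. Not every member of the set was thus on in all of these libraries. Orange replicate 2 was off for 25 of them, orange replicate 3 for 18 and white replicate 2 for 14. Of these 26 genes, 21 have a contig number and they lie on 18 contigs. A single library more than 4 times above the other 5 was found for 14, 2 and 41 members where it was orange replicate 1, 2 or 3 and for 35, 29 and 29 members where it was white replicate 1, 2 or 3. Such sets can overlap. With each member given only to its smallest set of libraries above the rest, 20 of the 26 stayed with orange replicate 1 and white replicates 1 and 3. The 41 members led by orange replicate 3, the deepest library, had a median of 4.78 FPKM there. Their medians were 0.133 FPKM in orange replicate 1, 0 in orange replicate 2 and 0.0277 to 0.0900 FPKM in the white libraries. evm.TU.Contig1331.5, evm.TU.Contig125.104 and evm.TU.Contig178.71 belong to this set. Over the 6 libraries, Pearson's r of log2(FPKM + 0.5) was 0.99 between evm.TU.Contig1331.5 and each of the others, and it rests on the 1 high library.

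**Figure D4:**
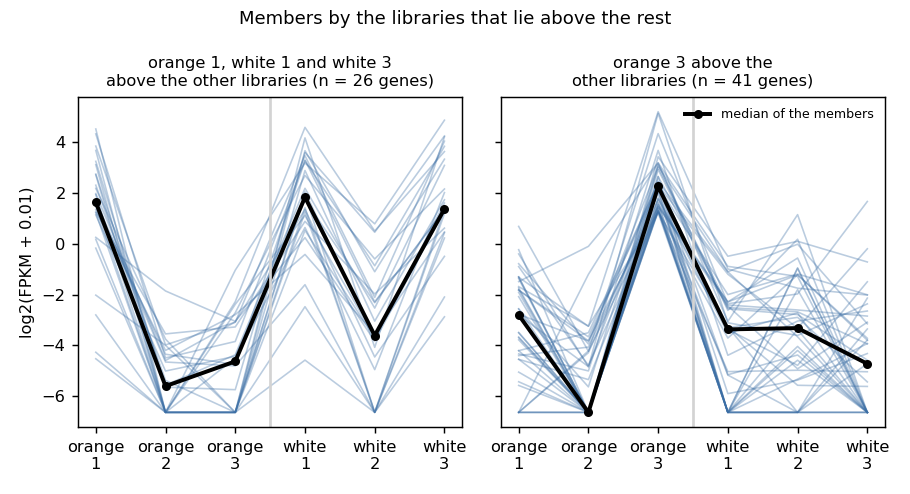
Values as log2(FPKM + 0.01) in each library for the 26 members with orange replicate 1 and white replicates 1 and 3 above the rest (left) and the 41 members with orange replicate 3 above the rest (right). Thin lines are genes and the thick line joins the medians. These reach 3.11, 3.57 and 2.59 FPKM in orange replicate 1 and white replicates 1 and 3 on the left, and 4.78 FPKM in orange replicate 3 on the right.

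Libraries of different colours were also compared over genes outside the set. For each tested gene that is not a member, the deviation of each library from the mean of its colour was taken on the log2(FPKM + 0.5) scale. Across these 15063 genes, the deviations of orange replicate 1 correlated at 0.24 with white replicate 1, at -0.37 with white replicate 2 and at 0.19 with white replicate 3. Across the 300 members the values were 0.16, -0.29 and 0.15. Orange replicate 3 correlated with white replicate 2 at 0.28 over the non-members and at 0.25 over the members. The deviations of a gene within a colour cancel out, so positive correlations with some of its libraries force negative values with others. These correlations are therefore not separate observations. They are across genes of the same 6 libraries, which are not independent, and describe the libraries only.

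Some members stood next to each other on a contig. The evm.TU identifiers give a contig and a running number, and 234 members have one. Of these, 24 (10.3%) form 13 pairs of consecutive numbers, and both genes of a pair had their highest value in the same library in 10 pairs. Among 5627 neighbouring pairs with both genes at 2 FPKM or more in a library, 27.5% shared their highest library. Pearson's r over the 6 libraries had a median of 0.98 in the 13 pairs and of 0.33 in the 5627 pairs, and exceeded 0.8 in 11 pairs and in 14.3% of pairs. Members with a single high library reach a high r easily, so this is a description only. evm.TU.Contig519.29 and evm.TU.Contig519.30, named after their values were seen, had 0 reads in all 3 orange libraries and in white replicates 1 and 3. In white replicate 2 they had 27.5 and 19.5 FPKM, from 1813 and 370 reads. The 2 longest runs held 3 members. evm.TU.Contig1377.6, evm.TU.Contig1377.7 and evm.TU.Contig1377.8 had 3.66, 2.96 and 2.44 FPKM in white replicate 3 and at most 0.568 FPKM in every other library. In the run evm.TU.Contig499.9, evm.TU.Contig499.10 and evm.TU.Contig499.11, the first and second gene had 6.28 and 5.04 FPKM in orange replicate 3. The last was highest in white replicate 2, at 2.34 FPKM, with 0.353 FPKM in orange replicate 3, so neighbours did not always share their pattern. Reads of overlapping or near-identical neighbours could have been divided in ways that cannot be checked.

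Members also differed from other genes in their identifiers. Of the 300, 66 (22.0%, exact 95% interval 17.4% to 27.1%) have an identifier of the form Novel00449, against 10.7% (10.1% to 11.2%) of the 12922 genes at 2 FPKM or more in a library and 8.45% of all genes. Restricted to genes with a highest value from 2 to under 10 FPKM, the shares were 22.8% of 263 members and 12.9% of 7902 genes. The intervals treat genes as independent, and what this form stands for is not given in the sources used here. Of the members with a contig number, 20 (8.55%) were the sole gene of their contig in the files, against 3.75% of the genes at 2 FPKM or more. Lengths were recovered from the values and are secure only where several libraries hold reads. Over the 180 members with reads in 5 or 6 libraries the median length was 1604 bases, against 1923 bases over 12530 other genes at 2 FPKM or more. For short genes 1 read is worth more FPKM, so off can require 0 reads.

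**Figure D5:**
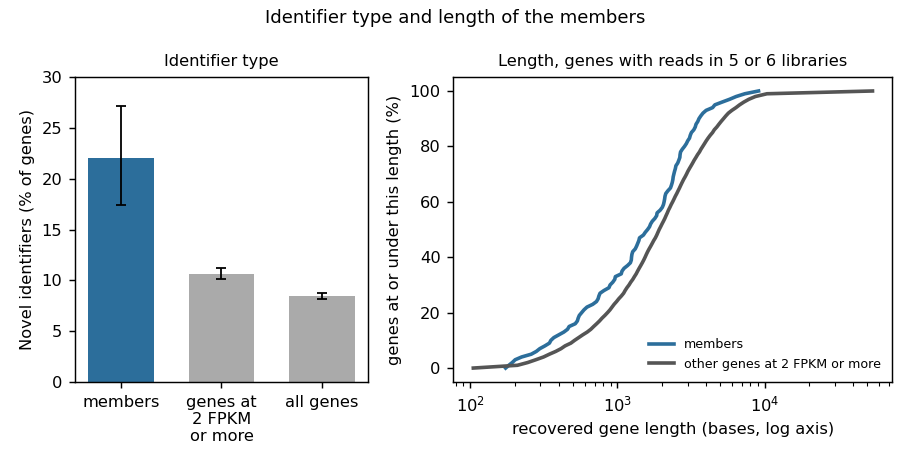
Left, share of genes with an identifier of the form Novel00449 among the members, the genes at 2 FPKM or more in a library and all genes, with exact 95% intervals. Right, cumulative share of genes against recovered length for the 180 members and the 12530 other genes with reads in 5 or 6 libraries, where the member curve lies to the left of the other, with medians of 1604 and 1923 bases.

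The comparison of orange with white muscle called none of the members. The fit used limma on log2(FPKM + 0.5) for 15341 genes whose mean reached 0.5 FPKM, and differentially expressed genes (DEGs) were those past an adjusted p of 0.05 with a log2 fold change beyond 1 in size. Over all tested genes 1.43% were DEGs, 0.652% higher and 0.776% lower in orange. Of the 278 members tested, 0 were DEGs, and limma voom on the recovered reads, which called 0.111% of all tested genes, also gave 0. At an unadjusted p under 0.05 there were 25 members (8.99%), against 18% of all tested genes. The rule picks genes with a wide spread within a colour, which widens the error of this comparison, so nothing is read from these counts. The median standard error was 0.80 for members and 0.28 for all tested genes. In 11 members (3.96%) the orange and white values did not overlap, 6 of them higher and 5 lower in orange, against 24.1% of all tested genes.

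The sizes of the differences between the colour means are given as a description, since 1 high library, by which the members were chosen, also moves the mean of its colour. The log2 fold change of orange over white was over 1 in 49 and under -1 in 93 of the 278 members, together 51.1%, against 10.4% of all tested genes past either limit. Its median was -0.59 in members and -0.12 over all tested genes, and -0.51 and -0.00 after scaling by median ratios. It was 0.45 in the 108 tested members that met the rule in orange only and -0.94 in the 158 that met it in white only, a direction to which the choice of members contributes. evm.TU.Contig624.9, with the highest value of all members, averaged 668 ± 53.8 FPKM (SD, n = 3) in orange and 96.5 ± 167 FPKM (SD, n = 3) in white muscle. On the log2(FPKM + 0.5) scale, orange lay 7.002 above white (SE 2.14), and the limma adjusted p was 0.161. Without white replicate 1 the difference was 9.90 (limma adjusted p = 0.000432), and over the 16 alternatives the limma adjusted p ranged from 0.000432 to 0.348. Some members became DEGs when a white library was left out, which removes values by which members were chosen. Without white replicate 1 these were 3 of 256 members tested, against 0.362% of all tested genes. Without white replicate 2 they were 10 of 267 members, against 1.71% of genes, and without white replicate 3 they were 9 of 263 members, against 0.538% of genes. Without orange replicate 1, 2 or 3, 0 members were DEGs, where 0.41%, 0.136% and 0.456% of all tested genes were.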

How the data were processed

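Polyadenylated RNA from 6 pools of 3 muscles was sequenced as read pairs. The authors aligned reads with HISAT2 2.0.4 to an unpublished bay scallop genome, counted them per gene with HTSeq 0.9.1 and deposited FPKM values for each library. The annotation, strandedness and treatment of multiply mapped reads were not given in the sources used here. Whole reads were worked out from the FPKM steps, and they sum to 99.572% to 99.665% of each library's total. Recovered length, and so reads, is a lower bound where few libraries hold reads (14 members had reads in 1 library and 25 in 2).

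Members were picked by FPKM as stated in the report. The members and lists were chosen with earlier results of these data known. Named genes were the 4 members with the highest value among those that met the rule in orange only, in white only and in both; for each library, the highest member on in it alone, or off in it alone, of its colour; the longest runs of neighbours; the genes at the limits; and, among the members named for their level or single-library pattern, the 2 pairs with the highest r. Exceptions are stated. The colours were compared with limma 3.58.1 (R 4.3.3), with Benjamini-Hochberg adjustment. The comparison was tested on simulated data and recovered 99.5% of 200 genes changed 4-fold among 15327. The simulation gave every gene the same relative spread between libraries and changed only genes whose mean reached 2 FPKM. Members spread more widely within a colour, so this recovery does not apply to them. The authors took the animals from a scallop farm and call the pools biological replicates. Whether the animals of different pools were reared apart is not stated, so p-values measure only the spread between these libraries. Alternatives were other limits, pseudocounts, filters, scalings, limma voom, a replicate block and leaving out each library. No sequences are shown.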

Additional observations from a re-analysis of the deposited data

How the results depend on the processing

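The 356 genes that met the rule, 150 in orange and 219 in white, became 209, 88 and 127 with off only at 0 FPKM, 932, 400 and 584 with on at 1 FPKM or more, and 92, 41 and 51 with on at 5 FPKM or more. With off only at 0 FPKM, 7 orange-only members were off and 1 was on in every white library, and 31 white-only members were off in every orange library. With off under 0.2 FPKM, 5 orange-only members were on in every white library. With on at 1 FPKM or more, 15 orange-only members were on in every white library and 40 white-only members on in every orange library. With on at 5 FPKM or more, 7 orange-only members were off and 1 was on in every white library, and 16 white-only members were off and 4 on in every orange library. Leaving out each library in turn gave 244 to 298 genes in all, 58 to 150 in orange and 96 to 219 in white. Orange-only members then numbered 5 to 43 off and 0 to 21 on in every white library, and white-only members 33 to 87 off and 4 to 17 on in every orange library. Leaving out a library of the colour looked at weakens this condition, which contributes to rises. The 26 and 41 members of the library sets became 15 and 27 at a factor of 10, which was chosen after the values were seen. The share of identifiers of the form Novel00449 stayed within 19.6% to 26.7%.

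The 219 DEGs over all genes became 66 with no filter, 30 with a filter at a mean of 5 FPKM and 17 with limma voom, and 21 to 263 when a library was left out, the lowest without orange replicate 2 and the highest without white replicate 2. Members that were DEGs numbered 0 to 10 when a library was left out. The fit with a replicate block gave 187 DEGs (1.22% of tested genes), 137 of them shared with the main fit. Of the 278 members tested, 4 were DEGs with the block, 2 higher and 2 lower in orange. The main fit called 0 members, so none of these was among the shared DEGs. Nothing states that libraries of the same number belong together, and whether they do was not tested. Across all tested genes, their departures from the mean of the colour had correlations of 0.23, 0.15 and -0.19 for replicates 1, 2 and 3. The cause of the changes in DEG counts was not tested. The log2 fold change of evm.TU.Contig624.9 was 5.31 to 9.90 and positive under 16 alternatives.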
